A study of Mus musculus with 4 samples.

Results

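The DNAJ genes encode the J-domain proteins, also called HSP40 proteins, which deliver unfolded proteins to the HSP70 chaperones. Members were all rows of the deposited gene table whose symbol starts with Dnaja, Dnajb or Dnajc followed by a number, without the pseudogene symbols that end in -ps. This gave 45 of 50763 genes, of which 4 belong to class A, 13 to class B and 28 to class C. Polyadenylated RNA had been sequenced from pachytene spermatocytes, the germ cells in the long middle stage of meiotic prophase, purified from mouse testis. There were 2 libraries of Hsf5 knockdown mice and 2 libraries of wild-type (WT) mice. Hsf5 encodes a heat shock factor found mainly in male germ cells. The labels do not say how the knockdown was made, nor the strain, age or number of animals. The replicates are labelled biological but no animals are named, so a p-value here reflects library-to-library spread, which may be technical.

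The J domain is a helical bundle with an invariant histidine-proline-aspartate motif that makes HSP70 hydrolyse ATP and close on its client. Class A proteins carry a J domain, a glycine- and phenylalanine-rich stretch and a zinc-binding region, class B proteins lack the zinc-binding region, and class C proteins share only the J domain and do varied work in many compartments. Male germ cells are known for their own HSP70 proteins, such as HSPA2 and HSPA1L, and for J-domain proteins made mostly in testis.

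The 4 libraries held 33287428 to 42479164 counts. Levels are given in CPM, counts relative to the library's size scaled with TMM factors, fold changes are log2 of knockdown over WT with their standard error (SE), and n is 2 libraries per group throughout. Hsf5 itself had 287 and 238 CPM in knockdown replicates 1 and 2, against 586 and 449 CPM in WT replicates 1 and 2. Neither knockdown library reached the WT range and neither was near 0, with a log2 fold change of -0.98 (SE 0.31, edgeR quasi-likelihood test, adjusted p = 0.0217). That call was lost without WT replicate 1 (edgeR, adjusted p = 0.219) and without WT replicate 2 (edgeR, adjusted p = 0.0725). It was also lost when only library totals set the scale (-0.55, edgeR, adjusted p = 0.116). Markers of the labelled cell type were present in all libraries: the summed level of 16 pachytene markers was 4338 and 3346 CPM in the knockdown libraries and 13233 and 12658 CPM in the WT libraries. Of these 16 markers 4 were higher, 8 were lower and 4 did not pass. The number higher was 6 when only library totals set the scale, without the low-count filter and with a block for the replicate number. In these refits 7, 7 and 8 markers were lower. The median log2 fold change of the 16 was -0.92, and -1.14 to -0.66 with each library left out in turn. Of 23594 genes tested, 27.4% were higher and 33.5% lower in the knockdown libraries at an adjusted p under 0.05. Over all genes the log2 fold change had a median of -0.12. Scaling by library totals alone put it at 0.31, with 8122 genes higher and 6679 lower. Scaling to the genes of the synaptonemal complex and cohesin, called axis-gene scaling from here on, put it at -0.63, with 3097 higher and 8114 lower and no pachytene marker higher.

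All 45 members had enough counts to be tested. In the Hsf5 knockdown 18 members (40%) were lower, where 33.5% of all genes were, and 2 members (4.44%) were higher, where 27.4% of all genes were. Together 20 members passed, where 60.9% of all genes did. The other 25 did not pass, with log2 fold changes from -0.86 to 1.5, and only Dnaja3 and Dnaja4 among these had an unadjusted p under 0.05. The median log2 fold change of the members was -0.26. Scaling by library totals alone left 18 members lower, where 28.3% of all genes were, and 7 higher, where 34.4% of all genes were. Under axis-gene scaling 20 members were lower, where 34.4% of all genes were, and 0 were higher, where 13.1% of all genes were. The family median was 0.16 and -0.84 under these scalings. Of the 18 lower members, 17 passed as lower in all 11 refits with another scaling, filter, tool, block or set of libraries. The exception was Dnajb5. No member was higher in all of these refits.

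Class B held 10 of the 18 lower members. No class A member passed in either direction at this scaling (median log2 fold change 0.05). These 10 are 76.9% of the 13 class B members, none of which was higher, with a median of -1.94. In class C 8 of 28 members (28.6%) were lower, 2 were higher and 18 did not pass, with a median of -0.01. With TMM scaling 33.5% of all genes were lower and 27.4% higher. These shares are the background for class C and for the smaller groups and gene lists below. The 2 knockdown values were below the 2 WT values for 22 members, a pattern found in 43.7% of all genes tested, and above them for 9 members, found in 39% of all genes. In the other 14 the groups overlapped. Of the lower members 7 fell by 8-fold or more, a fall found in 19.6% of all genes: Dnajc5b, Dnajb8, Dnajb7, Dnajb13, Dnajb3, Dnajb14 and Dnajc28. In RNA of a whole cell preparation, fewer cells of a type and less RNA per cell cannot be told apart.

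**Figure D1:**
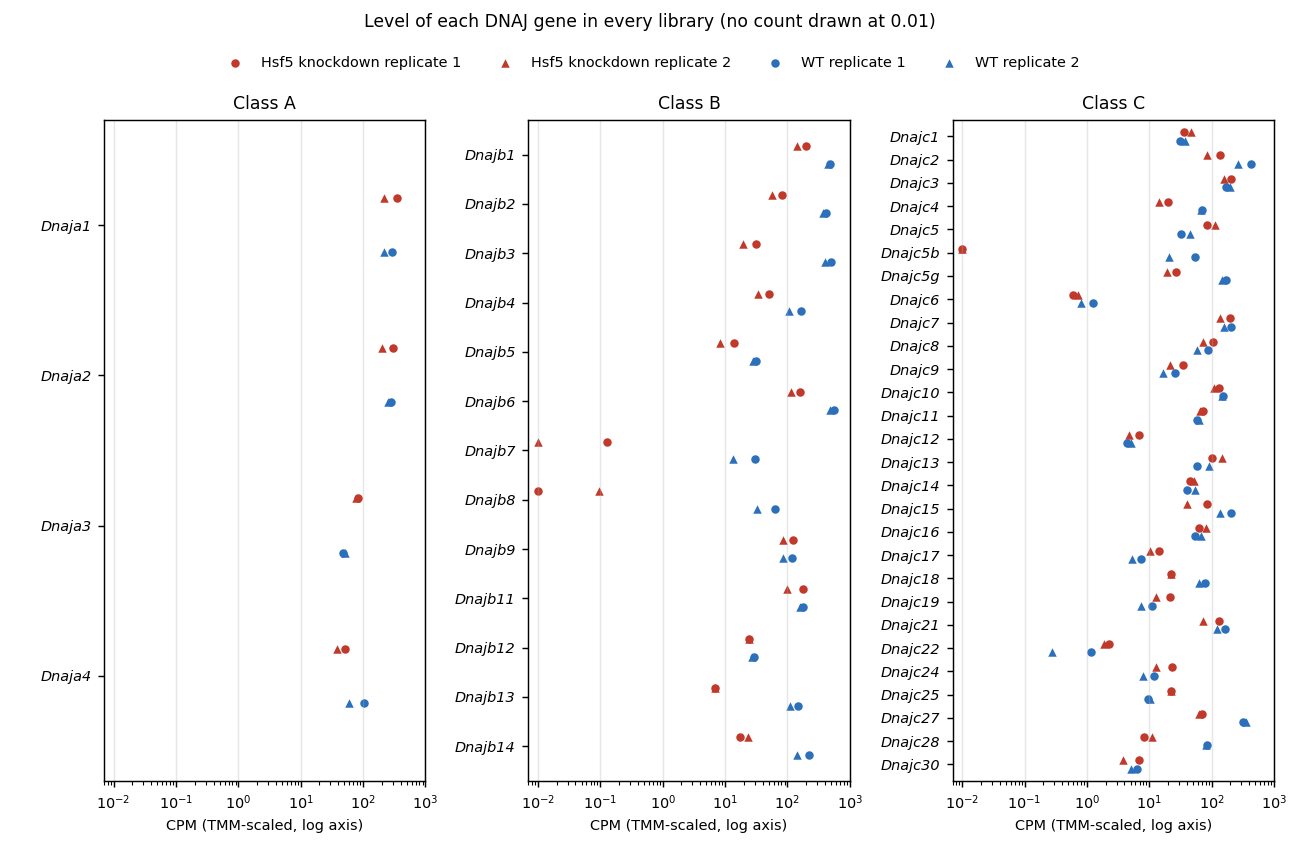
Level of every DNAJ member in each of the 4 libraries, in TMM-scaled CPM on a log axis, with Hsf5 knockdown and WT libraries as separate points. Dnaja1 and Dnaja2 overlap between the groups, and Dnajb7, Dnajb8 and Dnajc5b stand at or near 0 in the knockdown libraries.

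**Figure D2:**
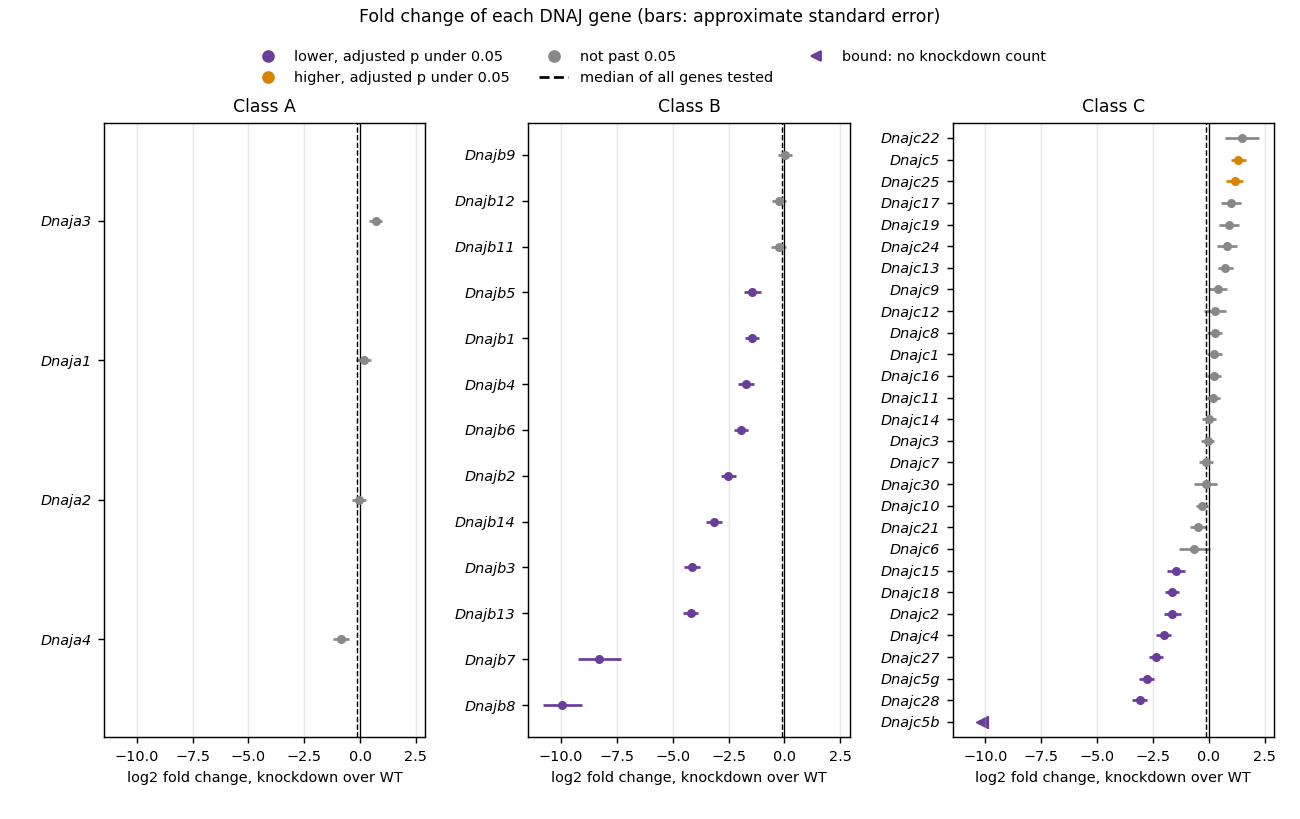
Log2 fold change of knockdown over WT for every member with its standard error, by class. The 10 class B members that passed lie left of 0, and the 4 class A members lie around 0.

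Among the class B genes of testis, Dnajb3, known as MSJ-1 and made in male germ cells, had 31.9 and 19.5 CPM in the knockdown libraries and 501 and 404 CPM in the WT libraries. The groups were far apart, and the log2 fold change was -4.14 (SE 0.38, edgeR, adjusted p = 3.6e-05). Dnajb8, a testis-expressed suppressor of protein aggregation, had 0 and 0.0969 CPM (0 and 4 counts) in the knockdown libraries, against 64.5 and 32.3 CPM (2166 and 930 counts) in WT. Its transcript was thus close to undetected in the knockdown, 1099-fold lower over the summed counts (95% counting interval 429 to 4033; edgeR, adjusted p = 2.86e-05). Dnajb7, also a testis gene, had 0.127 and 0 CPM (6 and 0 counts) in the knockdown and 30.5 and 13.2 CPM (1024 and 380 counts) in WT. The summed counts were 332-fold lower (95% counting interval 153 to 905; edgeR, adjusted p = 0.00013). The fitted log2 fold change of Dnajb8 was -9.95, with -8.83 without knockdown replicate 1 and -13.78 without knockdown replicate 2. For Dnajb7 it was -8.29, with -12.52 without knockdown replicate 1, -7.37 without knockdown replicate 2 and -7.58 without WT replicate 1. The -13.78 and the -12.52 rest on a single knockdown library with 0 counts of the gene, so the counts do not fix their size. Counting intervals cover counting error only. Dnajb3, Dnajb7 and Dnajb8 have a single exon in their longest coding transcript, as has Dnajc30, which did not pass. The other 41 members have 2 or more exons, and 15 of them were lower, where 33.5% of all genes were. Another gene, 1700031F10Rik, overlaps 37.2% of the exon bases of Dnajb8 on the opposite strand, and the sources used here give no strand setting for the counting.

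Dnajb13 encodes a J-domain protein of the radial spokes, the T-shaped arms of the sperm tail axoneme. It had 6.98 and 7.0 CPM in the knockdown libraries and 146 and 112 CPM in the WT libraries. The replicates of each group were close and the groups far apart, with a log2 fold change of -4.20 (SE 0.33, edgeR, adjusted p = 1.84e-05). Other radial spoke genes moved the same way: of 12 tested, 11 were lower, none was higher and 1 did not pass, with a median of -2.89. Rsph6a, a spoke head protein, had 7.70 and 5.79 CPM in the knockdown and 442 and 437 CPM in WT (log2 fold change -6.02, SE 0.37, edgeR, adjusted p = 6.2e-06). Cfap251 and Cfap91, spoke-associated proteins of cilia and flagella, had log2 fold changes of -3.88 and -3.93. The same 11 to 0 split was found in all 11 refits. Ucp2 overlaps 11.2% of the exon bases of Dnajb13 on the opposite strand and moved the other way, with 98 and 103 CPM in the knockdown and 3.87 and 15.0 CPM in WT.

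All 5 class B members of cytosol and nucleus were lower. Dnajb1, the classic heat-inducible HSP40, had 197 and 140.5 CPM in the knockdown libraries and 474 and 455 CPM in WT. The groups did not overlap, and the log2 fold change was -1.46 (SE 0.31, edgeR, adjusted p = 0.00312). Dnajb2, which binds ubiquitin chains and steers clients to the proteasome, had 81.1 and 57.6 CPM in the knockdown and 419 and 370.3 CPM in WT, with a log2 fold change of -2.51 (SE 0.32, edgeR, adjusted p = 0.000231). Dnajb6, a suppressor of polyglutamine aggregation, had 158 and 116 CPM in the knockdown and 569 and 484 CPM in WT. The groups did not overlap, and its log2 fold change was -1.94 (SE 0.32, edgeR, adjusted p = 0.000827). Pseudogenes and other genes share 42.8% of its 50-base stretches, so reads of Dnajb6 may be split among them. Dnajb4, a close relative of Dnajb1, had 50.5 and 33.8 CPM in the knockdown and 168 and 108 CPM in WT (log2 fold change -1.71, SE 0.35, edgeR, adjusted p = 0.00243). Dnajb5, another relative, was also lower in both knockdown libraries, with 14 and 8.33 CPM in the knockdown and 31.7 and 28.5 CPM in WT. Its log2 fold change of -1.43 (SE 0.40, edgeR, adjusted p = 0.0116) did not pass without knockdown replicate 2 (edgeR, adjusted p = 0.0794).

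Because the targeted gene is a heat shock factor, the 250 bases before each start site in the RefSeq promoters of build GRCm38.p6 were searched for a short heat shock element, GAANNTTC or TTCNNGAA on either strand. It was present in 12.8% of all 32851 promoters and in 14.5% of all 27025 genes with a promoter. Of the 37 members with a promoter, 6 (16.2%) held it: Dnajb4, Dnajb6 and Dnajc27, which were lower, and Dnaja1, Dnaja4 and Dnajc10, which did not pass. The other 12 lower members with a promoter did not hold these letters in this window. A match describes the sequence only. The stretches around the matches of the lower class B members are shown 5′ to 3′ on the strand of the gene, with the element in capitals. That of Dnajb6 holds 2 overlapping matches 46 to 34 bases before the start, at chr5:29735844-29735872 on the plus strand. In GENCODE M21 this stretch overlaps an exon of Dnajb6 itself and an exon of Gm5129. The match of Dnajb4 lies 14 to 7 bases before the start, in the stretch chr3:152193846-152193889 on the minus strand.
Dnajb6: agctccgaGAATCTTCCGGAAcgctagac
Dnajb4: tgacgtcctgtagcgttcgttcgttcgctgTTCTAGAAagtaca

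Among class A members, which act in cytosol or mitochondria, no call was made with TMM scaling and all libraries. Dnaja1, a general cytosolic HSP40, had 351 and 215 CPM in the knockdown libraries and 291 and 217 CPM in WT. The groups overlapped, with a log2 fold change of 0.16 (SE 0.34, edgeR, adjusted p = 0.708). Dnaja2, another general cytosolic HSP40, had 307 and 199.9 CPM in the knockdown and 279 and 252 CPM in WT, again overlapping (log2 fold change -0.07, SE 0.32, edgeR, adjusted p = 0.868). Dnaja3, the mitochondrial member known as TID1, had 82.5 and 76.5 CPM in the knockdown and 47.1 and 51.5 CPM in WT. Both knockdown libraries were above both WT libraries, but the log2 fold change of 0.69 did not pass (SE 0.29, edgeR, adjusted p = 0.0604). It passed as higher with library totals alone (1.12, edgeR, adjusted p = 0.00698). Dnaja4, a cytosolic member, had 50.8 and 38.4 CPM in the knockdown and 104 and 58.7 CPM in WT. Both knockdown libraries were below both WT libraries, and the log2 fold change was -0.86 (SE 0.35, edgeR, adjusted p = 0.0586). It passed with DESeq2 size factors in the same fit (-0.92, edgeR, adjusted p = 0.0442), when genes had to average 1 CPM (-0.92, edgeR, adjusted p = 0.0465), under axis-gene scaling (-1.36, edgeR, adjusted p = 0.0308) and without WT replicate 2 (-1.19, edgeR, adjusted p = 0.0305). It did not pass with library totals alone, without the low-count filter, with the DESeq2 Wald test or without any other single library. Skic8, a gene on the opposite strand that overlaps Dnaja4, had 62.2 and 38.4 CPM in the knockdown and 31.0 and 33.4 CPM in WT. The heat shock element occurred at 124 to 117 bases before the start of Dnaja1, in the stretch chr4:40722333-40722362, and at 90 to 83 bases before that of Dnaja4, in chr9:54699439-54699506, both on the plus strand. A second match in Dnaja4 lies 52 to 45 bases before the start. In GENCODE M21 the stretch around this second match overlaps an exon of Dnaja4. The Dnaja1 stretch overlaps exons of Dnaja1 and Gm6297. The stretches with positions are shown with the element in capitals. The reason is that both genes hold the same letters as the lower Dnajb4 and Dnajb6 and were not called.
Dnaja1: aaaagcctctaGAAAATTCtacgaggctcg
Dnaja4: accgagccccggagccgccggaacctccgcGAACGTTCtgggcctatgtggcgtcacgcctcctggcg

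The cysteine string proteins, palmitoylated J-domain proteins of vesicle membranes, differed among themselves in direction. Dnajc5, the widely expressed member that guards secretory vesicle fusion, had 84.9 and 112 CPM in the knockdown libraries and 32.7 and 45.5 CPM in WT. Both knockdown libraries were above both WT libraries, and the log2 fold change was 1.33 (SE 0.32, edgeR, adjusted p = 0.00555). The call was lost without WT replicate 1 (1.09, edgeR, adjusted p = 0.0811) and under axis-gene scaling (0.83, edgeR, adjusted p = 0.231). Its testis paralog Dnajc5b had no count in either knockdown library, against 54.0 and 20.8 CPM (1813 and 600 counts) in WT. With the knockdown group set at a floor of 3 counts, 0.0339 CPM, it was 1142-fold lower (edgeR, adjusted p = 3.11e-05). The exact 95% counting limit of a count of 0 gives a smaller ratio, 929. The ratio at the floor rests on the libraries used: it was 615 without WT replicate 1, 1594 without WT replicate 2, 533 without knockdown replicate 1 and 609 without knockdown replicate 2. The other testis paralog, Dnajc5g, had 27.0 and 18.9 CPM in the knockdown and 173 and 144 CPM in WT, a log2 fold change of -2.78 (SE 0.33, edgeR, adjusted p = 0.000141). Per kilobase of transcript, Dnajc5 made up 42.8% and 58.4% of the summed level of the 3 genes in the knockdown libraries and 2.97% and 5.81% in WT. Dnajc5g made up 57.2% and 41.6% in the knockdown and 65.9% and 77.3% in WT, and Dnajc5b was absent in the knockdown counts and made up 31.2% and 16.9% in WT.

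In the mitochondrion, 3 of 7 members were lower, where 33.5% of all genes were, and 4, with Dnaja3 among them, did not pass. Dnajc28, a mitochondrial protein of little-known function, had 8.29 and 11 CPM in the knockdown and 85 and 79.7 CPM in WT (log2 fold change -3.09, SE 0.34, edgeR, adjusted p = 0.0001). Dnajc4, counted among mitochondrial proteins, had 19.7 and 14.5 CPM in the knockdown and 69.4 and 68.7 CPM in WT (log2 fold change -2.01, SE 0.33, edgeR, adjusted p = 0.000808). In both genes the replicates lay close together and the groups apart. Dnajc15, also known as MCJ, is a J-protein of the import motor that pulls proteins through the inner membrane. It had 84.1 and 40.6 CPM in the knockdown and 207 and 136 CPM in WT (log2 fold change -1.46, SE 0.40, edgeR, adjusted p = 0.0105). Dnajc19, its relative in the same motor, had 21.4 and 12.6 CPM in the knockdown and 10.9 and 7.40 CPM in WT, with both knockdown libraries higher and a log2 fold change of 0.89 that did not pass (SE 0.45, edgeR, adjusted p = 0.108; with library totals alone 1.32, adjusted p = 0.0265). Pam16, the J-like partner in the motor, was lower (log2 fold change -1.22, SE 0.45, edgeR, adjusted p = 0.0399), a call lost with library totals alone, without knockdown replicate 2 and without WT replicate 1. Of 14 genes of mitochondrial protein import, Pam16 included, 6 were higher, 2 were lower and 6 did not pass, and under axis-gene scaling 3 were higher and 3 lower. The rises included Hspd1 (3.38 on the log2 scale) and Hspe1 (2.73), the chaperonin and co-chaperonin of the matrix, and Timm17b (2.2), a channel subunit.

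Most of the 10 members of the endoplasmic reticulum did not pass, 8 in all. Dnajb9 and Dnajb11, luminal partners of the HSP70 BiP, overlapped between groups. Dnajb11 had 181 and 100.3 CPM in the knockdown libraries and 176 and 162 CPM in WT, and Dnajb9 had 121 and 83.7 CPM in the knockdown and 118 and 83.6 CPM in WT. Dnajc3, the luminal protein p58IPK, had 201 and 159 CPM in the knockdown and 173 and 198 CPM in WT, also overlapping, with a log2 fold change of -0.04 (SE 0.29, edgeR, adjusted p = 0.91). The exception on the low side was Dnajb14, a J-protein of the reticulum membrane, with 17.1 and 23.6 CPM in the knockdown and 219.6 and 145 CPM in WT. The groups were far apart, with a log2 fold change of -3.16 (SE 0.35, edgeR, adjusted p = 0.00011). Its paralog Dnajb12, also of that membrane, had 24.2 and 23.9 CPM in the knockdown and 29.6 and 27.2 CPM in WT, a log2 fold change of -0.24 that did not pass (SE 0.33, edgeR, adjusted p = 0.555). On the high side was Dnajc25, a membrane member, with 22.3 and 22.4 CPM in the knockdown and 9.71 and 10.2 CPM in WT. Its log2 fold change of 1.17 (SE 0.37, edgeR, adjusted p = 0.0219) did not pass when any 1 of the 4 libraries was left out (edgeR, adjusted p 0.0524 to 0.0872), nor under axis-gene scaling (0.65, edgeR, adjusted p = 0.361).

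Of 15 genes of the ER stress response 9 were higher, 3 were lower and 3 did not pass, with a median of 1.13. Under axis-gene scaling 4 were higher and 3 lower. The 3 lower genes with TMM scaling were Ddit3 (-1.57), Sdf2l1 (-1.43) and Herpud1 (-0.90). Pdia4, a disulfide isomerase of the lumen, had 170.2 and 129 CPM in the knockdown and 23.6 and 28.8 CPM in WT (log2 fold change 2.51, SE 0.31, edgeR, adjusted p = 0.000198). Edem1, of the degradation of misfolded glycoproteins, and Eif2ak3, the stress sensor PERK, had log2 fold changes of 2.16 and 3.28. The promoter of Dnajc3 was the only one among the members to hold the ER stress response element, CCAAT and CCACG separated by any 9 bases on either strand, found in 0.113% of all promoters. It lies 105 to 87 bases before the start, in chr14:118937797-118937875 on the plus strand, and is shown in capitals because it is the textbook site of that response in a gene whose level overlapped between groups. Dnajc10, a reductase of the lumen that did not pass, holds the heat shock element 182 to 175 bases before its start, in chr2:80315254-80315321 on the plus strand.
Dnajc3: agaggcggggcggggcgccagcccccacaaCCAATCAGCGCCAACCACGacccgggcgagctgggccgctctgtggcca
Dnajc10: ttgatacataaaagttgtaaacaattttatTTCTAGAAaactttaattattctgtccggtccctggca

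Of 6 members that work on ribosomes, splicing, histones or translation factors, 1 was lower and 5 did not pass. Dnajc2, a ribosome-associated J-protein that guides nascent chains to HSP70, had 138 and 85.4 CPM in the knockdown libraries and 426 and 264 CPM in WT. The groups did not overlap, and the log2 fold change was -1.63 (SE 0.37, edgeR, adjusted p = 0.00414). The others were Dnajc8 and Dnajc17 of the spliceosome, the histone H3-H4 chaperone Dnajc9, Dnajc21 of large ribosomal subunit maturation and Dnajc24 of diphthamide synthesis, with log2 fold changes from -0.48 to 0.98. Dnajc21 had the only negative value among these 5. Dnajc17 and Dnajc24 passed as higher with library totals alone and Dnajc21 as lower under axis-gene scaling.

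Dnajc27 and Dnajc18 were the remaining lower members. Dnajc27, a Rab-like GTPase with a J domain, had 68.8 and 63.0 CPM in the knockdown libraries and 318 and 357 CPM in WT. The groups were far apart, with a log2 fold change of -2.36 (SE 0.30, edgeR, adjusted p = 0.000205). Dnajc18, a membrane relative of Dnajb12 and Dnajb14, had 22.6 and 22.7 CPM in the knockdown and 77.4 and 62.5 CPM in WT (log2 fold change -1.63, SE 0.31, edgeR, adjusted p = 0.00185). Dnajc27 was also the only member whose promoter held the cAMP response element TGACGTCA, an element of many germ cell promoters that was found in 1.55% of all promoters. It lies 16 to 9 bases before the start, in chr12:4082528-4082573, and the heat shock element lies 213 to 206 bases before it, in chr12:4082331-4082398, both on the plus strand and in capitals.
Dnajc27, cAMP response element: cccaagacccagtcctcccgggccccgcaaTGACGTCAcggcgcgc
Dnajc27, heat shock element: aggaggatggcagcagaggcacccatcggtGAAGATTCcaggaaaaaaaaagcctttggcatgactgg

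The endosomal members did not pass. Dnajc13, the retromer-associated protein RME-8, had 102 and 147 CPM in the knockdown and 58.8 and 90.8 CPM in WT. Its log2 fold change of 0.73 (SE 0.33, edgeR, adjusted p = 0.0836) passed without knockdown replicate 1 (1.04, edgeR, adjusted p = 0.0302) and with library totals alone (1.18, edgeR, adjusted p = 0.0167). Dnajc6, the clathrin-uncoating protein auxilin, was low in all libraries, at 0.592 and 0.726 CPM in the knockdown and 1.25 and 0.799 CPM in WT. Dnajc7, which passes clients between HSP70 and HSP90, overlapped between groups, with 195 and 136 CPM in the knockdown and 207 and 157 CPM in WT (log2 fold change -0.14). Dnajc22 had the highest fitted log2 fold change of the family, 1.5, but with a large error (SE 0.77, edgeR, adjusted p = 0.115), at 2.26 and 1.86 CPM in the knockdown and 1.16 and 0.278 CPM in WT. It passed without WT replicate 1 (2.86, edgeR, adjusted p = 0.0146).

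The make-up of the family differed between the groups. Summed over the 45 members, the level was 3339 and 2547 CPM in the knockdown libraries and 6214 and 5234 CPM in the WT libraries, a log2 ratio of -0.96. Class B gave 883 and 614 CPM in the knockdown and 2947 and 2424 CPM in WT (-1.84), and class C gave 1665 and 1402 CPM in the knockdown and 2547 and 2230.5 CPM in WT (-0.64). Class A gave 791 and 530.1 CPM in the knockdown and 721 and 579 CPM in WT, which overlap (0.02). The two-sided exact permutation p was 0.333 for the family and for classes B and C, the smallest that 2 libraries against 2 can give, and 1 for class A. The class A ratio was 0.45 when scaled by library totals alone and -0.53 under axis-gene scaling, whereas the ratios of the family and of classes B and C were negative under both.

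Shares within the family do not depend on the scaling of the libraries. Per kilobase of the longest coding transcript, class B made up 29.8% and 28.1% of the family level in the knockdown libraries and 53.9% in each WT library. Class A made up 19.2% and 18.4% in the knockdown and 8.03% and 8.15% in WT, and class C made up 51.0% and 53.6% in the knockdown and 38.1% and 37.9% in WT. In all 3 classes the difference between groups exceeded that between replicates. Dnajb3 alone made up 2.70% and 2.29% in the knockdown and 19.2% and 19.1% in WT.

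**Figure D3:**
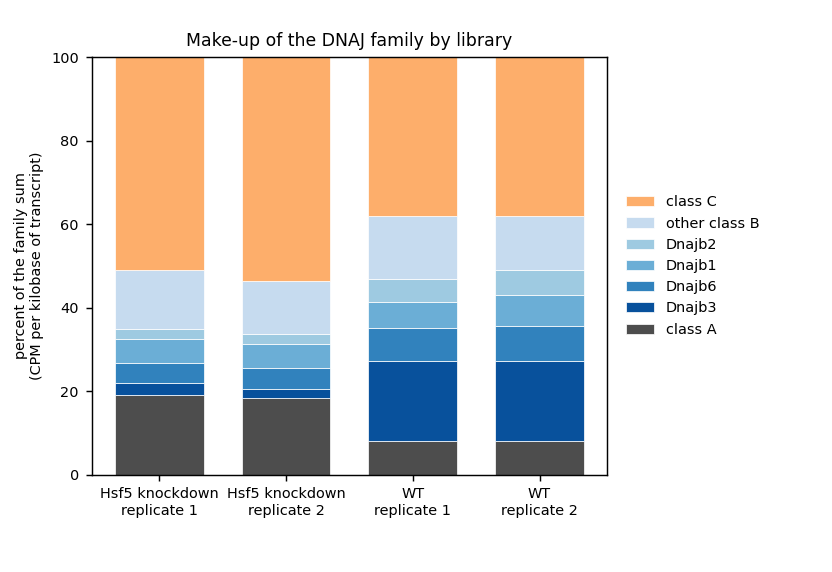
Share of the summed DNAJ level per kilobase taken by classes A, B and C in each library, in percent, with knockdown libraries left of WT libraries. Class B takes 53.9% in both WT libraries and under 30% in both knockdown libraries.

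The order of levels per kilobase also differed. In the knockdown the highest member was Dnaja2 at 86.8 ± 25.9 CPM per kilobase (SD, n = 2), followed by Dnajc7 at 70.9 ± 17.9 and Dnajc8, neighbours that lie within each other's spread. In WT the highest was Dnajb3 at 431 ± 65.2 CPM per kilobase (SD, n = 2), clear of Dnajb6 at 180.4 ± 20.7. Next in WT came Dnajb1, Dnajc2 and Dnajb2, whose means lie within 1 SD of Dnajc2. The 5 highest members together took 35.6% and 32.9% of the family level in the knockdown libraries and 46.0% and 46.4% in WT.

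The HSP70 partners differed among themselves in direction. Of 9 HSP70 genes 5 were higher, 2 were lower and 2 did not pass, with a median log2 fold change of 1.15. Hspa1l, a testis HSP70, had 3.15 and 2.88 CPM in the knockdown libraries and 159 and 86.9 CPM in WT (log2 fold change -5.35, SE 0.42, edgeR, adjusted p = 1.77e-05). Hspa8, the constitutive HSP70, had 1489 and 1052 CPM in the knockdown and 122 and 175 CPM in WT (log2 fold change 3.10, SE 0.38, edgeR, adjusted p = 0.000174). Hspa1b, a stress-inducible HSP70, had 22.7 and 27.3 CPM in the knockdown and 1.13 and 1.94 CPM in WT (log2 fold change 4.02, SE 0.48, edgeR, adjusted p = 0.000164). Hspa1a, Hspa1b, Hspa1l and Hspa8 have close copies, so reads may be split among them, though shared stretches were not measured for the HSP70 genes. Gm10501 overlaps 71.9% of the exon bases of Hspa1l on the opposite strand, so its counts are less certain. Hspa2, the main germ cell HSP70, chosen for mention after its values were seen, made up 27.5% and 29.8% of the HSP70 level per kilobase in the knockdown and 69.9% and 75.3% in WT, and Hspa8 made up 35.1% and 37.9% in the knockdown and 3.57% and 4.86% in WT. Without WT replicate 2 the HSP70 counts were 3 higher and 1 lower, and under axis-gene scaling 3 higher and 2 lower.

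Of 14 nucleotide exchange factors, which release the client from HSP70, 2 were higher, 6 were lower and 6 did not pass. The number higher was 1 when any single library was left out, and the number lower was 3 without WT replicate 2. Bag5 had 42.7 and 38.4 CPM in the knockdown and 627 and 485 CPM in WT (log2 fold change -3.78, SE 0.33, edgeR, adjusted p = 3.05e-05). Bag2 had 21.6 and 26.2 CPM in the knockdown and 2.26 and 4.34 CPM in WT, the opposite order (log2 fold change 2.86, SE 0.47, edgeR, adjusted p = 0.00086). Sil1, the exchange factor of BiP, was lower (-1.55, SE 0.31, edgeR, adjusted p = 0.00229). Among 5 J-domain genes with other symbols, Pam16 was lower and 4 did not pass. Of 13 genes of the heat shock response 6 were higher, 1 was lower and 6 did not pass. This list shares Bag3 and Hsph1 with the exchange factors and Hspd1 and Hspe1 with mitochondrial import. The HSP70 genes share Hspa5 with the ER stress response, Hspa9 with mitochondrial import and Hspa2 with the pachytene markers. Pam16 is in the lists of mitochondrial import and of J-domain genes with other symbols. The counts of these lists are thus not independent. Under axis-gene scaling 4 of the 13 heat shock response genes were higher and 3 lower. Hspb1, a small heat shock protein, had 92.5 and 82.8 CPM in the knockdown and 4.05 and 4.03 CPM in WT (log2 fold change 4.44, SE 0.35, edgeR, adjusted p = 1.74e-05). The lower gene of this list was Fkbp4 (-1.44). Of those that did not pass, Hsp90aa1 (-0.29), Bag3 (-0.79) and Hsph1 (-0.18) were negative, and Ahsa1 (0.48), Cryab (0.93) and Hsf1 (0.25) positive. In the same libraries Dnajb1, the classic heat-inducible member of the DNAJ family, was lower (-1.46). Hspa1b, the stress-inducible HSP70 named above, was higher (4.02). Whether a heat shock response took place was not tested.

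**Figure D4:**
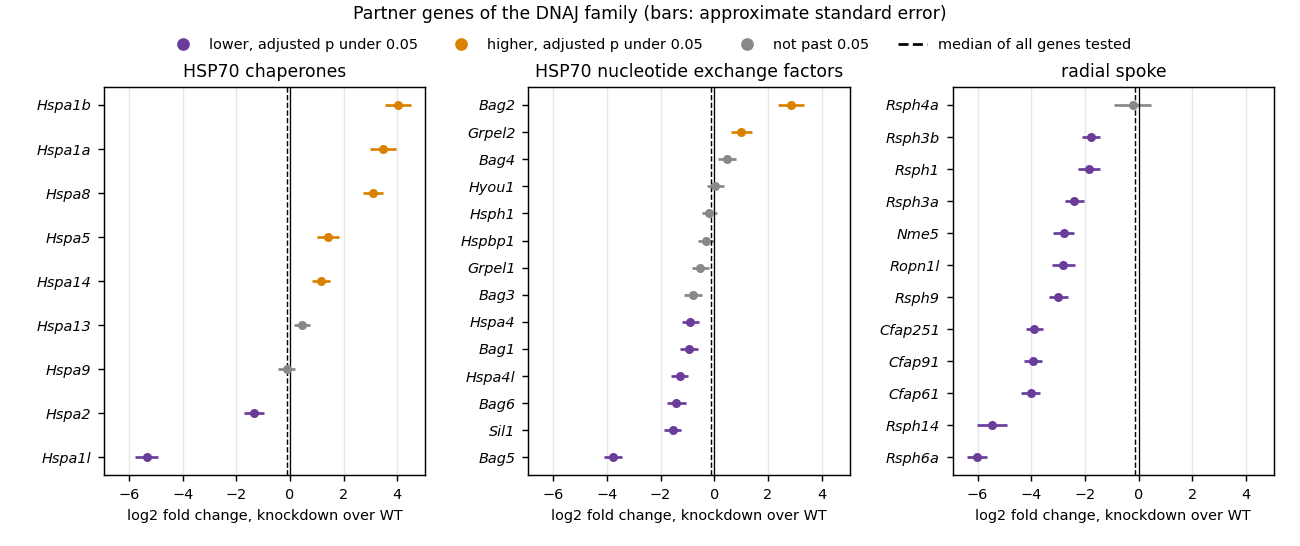
Log2 fold change of knockdown over WT, with its standard error, for the HSP70 chaperones, their nucleotide exchange factors and the radial spoke genes. Each point is a gene, the solid line marks 0 and the dashed line marks the median of all genes tested. The radial spoke genes lie left of 0 (list median -2.89, not drawn), and the HSP70 chaperones spread from Hspa1l at -5.35 to Hspa1b at 4.02.

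Markers of other testis cells moved with these results. All 12 markers of round and elongating spermatids were lower, summing to 298 and 255 CPM in the knockdown libraries and 6727 and 4249.9 CPM in WT, with Prm2 and Smcp at 0 in the knockdown. All 12 Sertoli markers were higher, with 4269 and 4928 CPM in the knockdown and 188 and 478 CPM in WT, as were all 7 Leydig markers, with 1407 and 2858 CPM in the knockdown and 116 and 792 CPM in WT. The Leydig count was 1 without knockdown replicate 2, 3 with the DESeq2 Wald test and 0 under axis-gene scaling, whereas the spermatid and Sertoli counts were 12 in all 11 refits. Of 11 spermatogonial markers 9 were higher and 2 did not pass, with 793 and 708 CPM in the knockdown and 55.2 and 73 CPM in WT. Of 8 macrophage markers 7 were higher, of 6 blood markers 4, of 6 endothelial markers 2 and of 5 myoid markers 4, and none of these was lower. The endothelial count was 4 without knockdown replicate 1 and 0 without knockdown replicate 2 or WT replicate 1, and the blood count was 2 without knockdown replicate 1. The spermatid markers thus moved in the direction of the lower members such as Dnajb3, Dnajb7, Dnajb8, Dnajb13 and Dnajc5b, and the other lists in that of Dnajc5 and Dnajc25. Their part in the results was not tested.

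**Figure D5:**
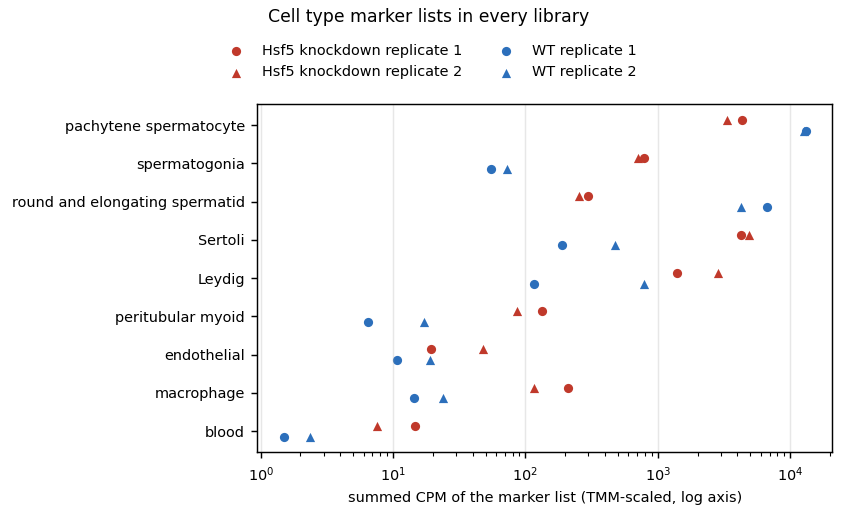
Summed TMM-scaled CPM of each marker list in each library on a log axis, knockdown beside WT. Spermatid and pachytene sums are lower in both knockdown libraries, and Sertoli, Leydig and spermatogonial sums are higher.

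Most members were lower in replicate 2 of each group. The median log2 ratio of replicate 2 over replicate 1 was -0.43 in the knockdown and -0.30 in WT over the 45 members, against 0 and -0.03 over all genes tested. Replicate 2 was the lower library for 32 members in the knockdown and for 34 in WT. No member lies on the X chromosome, which is silenced in pachytene, and the 45 members are spread over 17 chromosomes. Of the 17 members with an overlapping gene on the opposite strand, 5 were lower, where 33.5% of all genes were, and 12 did not pass. Stretches of 50 bases shared with other genes, matched on either strand, made up 51.9% of Dnaja4, 50.8% of Dnajb8, 42.8% of Dnajb6, 28.8% of Dnaja1, 25.6% of Dnajc14, 25.4% of Dnajc17, 24.3% of Dnajc30, 16.9% of Dnajc5b, 15.3% of Dnajc7, 10.9% of Dnajc2 and 10.1% of Dnajb13, so the counts of these members are less certain. For Dnaja4, Dnajb8, Dnajb13 and Dnajc7 the only sharers were overlapping genes on the opposite strand, so these shares repeat that overlap. The pseudogene Dnajb6-ps, left out of the family, had 324 and 112 counts in the knockdown and 327 and 583 counts in WT.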

How the data were processed

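Polyadenylated RNA of 4 libraries was measured, and the authors deposited their raw counts as 1 gene table, a column per library. The submitters' processing notes name HISAT2 2.2.1, featureCounts 1.5.3, Trim Galore 0.6.10, DESeq2 1.46.0 and genome build mm39. Neither annotation, strand setting nor the handling of multiply matching reads is stated there, so overlapping, antisense and near-identical genes are less certain. Columns were matched to labels by name.

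In R 4.3.3 with edgeR 4.0.16, filterByExpr left 23594 of 36809 genes with a count. TMM factors were 1.11 and 1.22 in the knockdown and 0.854 and 0.865 in WT. The quasi-likelihood F test used Benjamini-Hochberg adjustment over all genes tested at 0.05, with a biological coefficient of variation of 0.356. The SE is approximate, the size of the log2 fold change over the root of F. Replicates differed in counts beyond sampling noise (chi-square over its degrees of freedom, 93.8 in the knockdown and 44.1 in WT), so each library is 1 replicate. A group without a count was set at 3 counts, and counting intervals are exact. Neither covers more than counting error.

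The members and lists were chosen with earlier results of these data known, and the compartments with member values seen. Per-library values are given for members past 0.05 that average 1 CPM or more in a group, all class A members and the 6 highest in each group, and for up to 3 genes of a partner list past 0.05 with the smallest p. Other members with values were chosen after these were seen. Lengths, exons, overlaps and shared 50-base stretches came from GENCODE M21 and promoters from RefSeq, both on GRCm38, which precedes the build of the counts. Alternatives were other scalings (DESeq2 size factors, library totals, or the genes of the synaptonemal complex and cohesin, called axis-gene scaling), other filters, a Wald test in DESeq2 1.42.0, a block for the replicate number, each library left out, and a log2 fold change of at least 1.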

Additional observations from a re-analysis of the deposited data

How the results depend on the processing

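The number of lower members stayed between 17 and 20 under every alternative, and none of the values that changed sign belonged to a member past 0.05. With library totals only, 7 members were higher, the family median was 0.16, Hsf5 was at -0.55, and the summed log2 ratios were -0.53 for the family, 0.45 for class A, -1.42 for class B and -0.21 for class C. Values that turned positive were Dnaja2 at 0.36, Dnajb11 at 0.16, Dnajb12 at 0.20, Dnajc3 at 0.39, Dnajc7 at 0.29, Dnajc10 at 0.13 and Dnajc30 at 0.28. Under axis-gene scaling, 3097 of all genes and 0 members were higher, the family median was -0.84, and the summed ratios were -1.50, -0.53, -2.40 and -1.16. Values that turned negative were Dnaja1 at -0.41, Dnajb9 at -0.51, Dnajc1 at -0.23, Dnajc8 at -0.26, Dnajc9 at -0.14, Dnajc11 at -0.33, Dnajc12 at -0.31, Dnajc14 at -0.48 and Dnajc16 at -0.26. Dnajb9 was at -0.035 with DESeq2 size factors and at -0.034 when genes had to average 1 CPM, and Dnajc14 at -0.025 and -0.025. Leaving out 1 library at a time gave 1 to 2 higher members, a family median of -0.42 to -0.12 and Hsf5 at -1.13 to -0.79. It gave -0.16 to 0.48 for Dnaja1, -0.33 to 0.21 for Dnaja2, -0.19 to 0.28 for Dnajb9, -0.68 to 0.10 for Dnajb11, -0.15 to 0.12 for Dnajc3, -0.34 to 0.11 for Dnajc7, -0.18 to 0.27 for Dnajc14 and -0.56 to 0.23 for Dnajc30. The cause of these moves was not tested.

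The labels do not say whether libraries with the same replicate number are paired. Deviations of same-numbered libraries correlated at 0.21 across genes, which over only 2 pairs cannot decide it. With the replicate number as a block, 8 members were higher and 19 lower, against 29.7% and 35.4% of all genes. The members past 0.05 with the block but not without it were Dnaja3, Dnajc13, Dnajc17, Dnajc19, Dnajc22 and Dnajc24, which were higher, and Dnaja4, which was lower. Depth limits Dnajb7, Dnajb8 and Dnajc5b, with at most 6 counts in the knockdown, to bounds or wide intervals.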
